A study of Mus musculus with 12 samples.

Results

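The COUP-TF nuclear receptors Nr2f1, Nr2f2 and Nr2f6 were followed across rostral and caudal embryonic mouse cortex with and without AP2gamma. They are 3 of the 18193 genes named on the array. All probe sets annotated to 1 of the 3 genes alone were taken, which gave 9 of 45101: 1 for Nr2f1, 6 for Nr2f2 and 2 for Nr2f6. Each probe set, a group of short oligonucleotides that report on 1 transcript, was treated separately. RNA of embryonic day 14 mouse cortex was hybridised to 12 arrays, with 3 biological replicates in each of 4 groups. Caudal pieces came from AP2gamma knockout (KO) animals 1, 2 and 13 and from wild-type (WT) animals 4, 6 and 14. Rostral pieces came from KO animals 7, 8 and 15 and WT animals 10, 12 and 16. All groups share the stage and the amplification of 400 ng of total RNA, and the labels do not give the strain, the allele or the cell type of any deleting Cre.

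COUP-TFs are orphan receptors that bind paired copies of the motif AGGTCA as homodimers or together with retinoid X receptors, mostly as repressors. In the developing cortex Nr2f1 (COUP-TFI) is known for a gradient that is high caudally and laterally, and for restricting frontal and motor areas in favour of sensory ones. Nr2f2 (COUP-TFII) is known from the caudal and temporal cortex, from the caudal ganglionic eminence with the interneurons born there, and from venous vessels. Nr2f6 (EAR2) is a more distant relative, studied mainly in blood and immune cells and in the brainstem.

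The DNA just before the start of each gene is shown because the study removes AP2gamma, a factor that binds GC-rich sites. The sequences are from RefSeq on GRCm38.p6, on the minus strand, and cover the 250 bases before the start site. Capitals mark matches to GCCNNNGGC (the AP-2 motif, which reads the same on both strands) or to CTTTGAT (the TCF/LEF motif of Wnt signalling, searched on both strands as CTTTGAT or ATCAAAG).
Nr2f1, chr13:78198874-78199123: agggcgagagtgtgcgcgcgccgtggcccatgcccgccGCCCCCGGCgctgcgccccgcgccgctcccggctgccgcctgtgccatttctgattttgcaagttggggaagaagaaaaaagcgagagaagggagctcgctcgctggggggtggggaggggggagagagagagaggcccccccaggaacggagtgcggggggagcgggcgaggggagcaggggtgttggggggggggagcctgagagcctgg
Nr2f2, chr7:70366747-70366996: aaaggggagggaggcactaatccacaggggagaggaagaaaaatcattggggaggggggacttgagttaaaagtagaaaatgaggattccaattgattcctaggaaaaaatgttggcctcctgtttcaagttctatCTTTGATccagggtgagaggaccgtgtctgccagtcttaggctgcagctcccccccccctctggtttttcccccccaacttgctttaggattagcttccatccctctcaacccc
Nr2f6, chr8:71381953-71382202: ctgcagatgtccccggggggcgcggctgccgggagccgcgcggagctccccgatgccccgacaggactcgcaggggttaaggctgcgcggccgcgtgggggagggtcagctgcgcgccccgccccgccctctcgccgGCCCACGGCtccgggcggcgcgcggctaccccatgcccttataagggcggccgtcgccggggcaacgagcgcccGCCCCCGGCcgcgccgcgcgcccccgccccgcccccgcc

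The 3 stretches differ in base composition. G and C made up 72.0% of the Nr2f1 stretch, 50.0% of the Nr2f2 stretch and 82.4% of the Nr2f6 stretch, against a median of 52.4% over 32851 promoters. Nr2f1 held 1 AP-2 match and Nr2f6 held 2, and the motif occurred in 13.7% of all promoters. Nr2f2 held 1 TCF/LEF match, and that motif occurred in 3.21% of all promoters. The receptors' own motif AGGTCA (or TGACCT on the other strand), present in 14.0% of promoters, was not among these letters. A further start site of Nr2f1 in the same table held none of the 3 motifs.

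The arrays were alike in signal, with medians from 5.21 to 5.22 on the log2 scale and mean Spearman correlations with arrays of the same group from 0.926 to 0.952. The 3 probe sets of Tfap2c, which encodes AP2gamma, kept 42.9% to 48.0% of the WT signal in caudal KO cortex and 61.0% to 66.4% in rostral KO cortex. Dorsal telencephalon markers were present, with means over 7 tested genes, Emx1, Pax6 and Eomes among them, from 9.85 to 10.32. Meningeal markers (4 of 8 tested) averaged 8.18 in rostral KO animal 15 and 4.96 to 5.97 on the other 11 arrays. Ganglionic eminence and interneuron markers (8 of 10 tested) were also highest in that animal, at 8.27. Both lists include genes with some group means below the median of the table (5.21), such as Dcn and Dlx6. Xist was high in WT animals 6 and 12.

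Caudal cortex had more Nr2f1 and more Nr2f2 signal than rostral cortex in both genotypes, and Nr2f6 leaned the other way without passing the test. Of the 9 probe sets, 8 exceeded the median of the table (5.21) on at least 3 arrays and were tested. Of these, 1416160_at and 1444229_at (both Nr2f2) exceeded it on caudal arrays alone, 6 and 4 of them, so they entered the test through the region where they are high and their calls are a description. The other 6 tested members exceeded it on at least 1 array of each region. Even so, the rostral WT means of Nr2f2 1416158_at (5.08) and 1436475_at (5.16) lay below it. In WT cortex 5 of these 8 passed as higher caudally, where 0.0974% of all 24644 tested probe sets did. In KO cortex 5 of 8 passed, where 0.101% of all did. Averaged over genotypes, the 1 Nr2f1 and 5 tested Nr2f2 probe sets passed, where 0.71% of all did. Among the 6 members with arrays above the median in both regions, 4 passed in each of these 3 comparisons. They were Nr2f1 and the Nr2f2 probe sets 1416158_at, 1416159_at and 1436475_at. None of the 8 passed as lower caudally, against 0.239% of all in WT, 0.268% in KO and 1.64% in the average. The WT and KO differences are means of separate arrays, but their p-values come from the same fit. The spread in that fit is estimated from the arrays of all groups, so the WT and KO calls are not independent. With only the groups compared in the fit, 5 members passed in WT and 2 in KO, the Nr2f2 probe sets 1416158_at and 1416160_at. The labels do not say whether rostral and caudal pieces came from the same embryos or litters, and all regional p-values treat them as independent. In pieces of tissue, fewer cells that express a gene and less RNA per cell cannot be told apart. The plot of all members shows the regional step on each array.

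**Figure D1:**
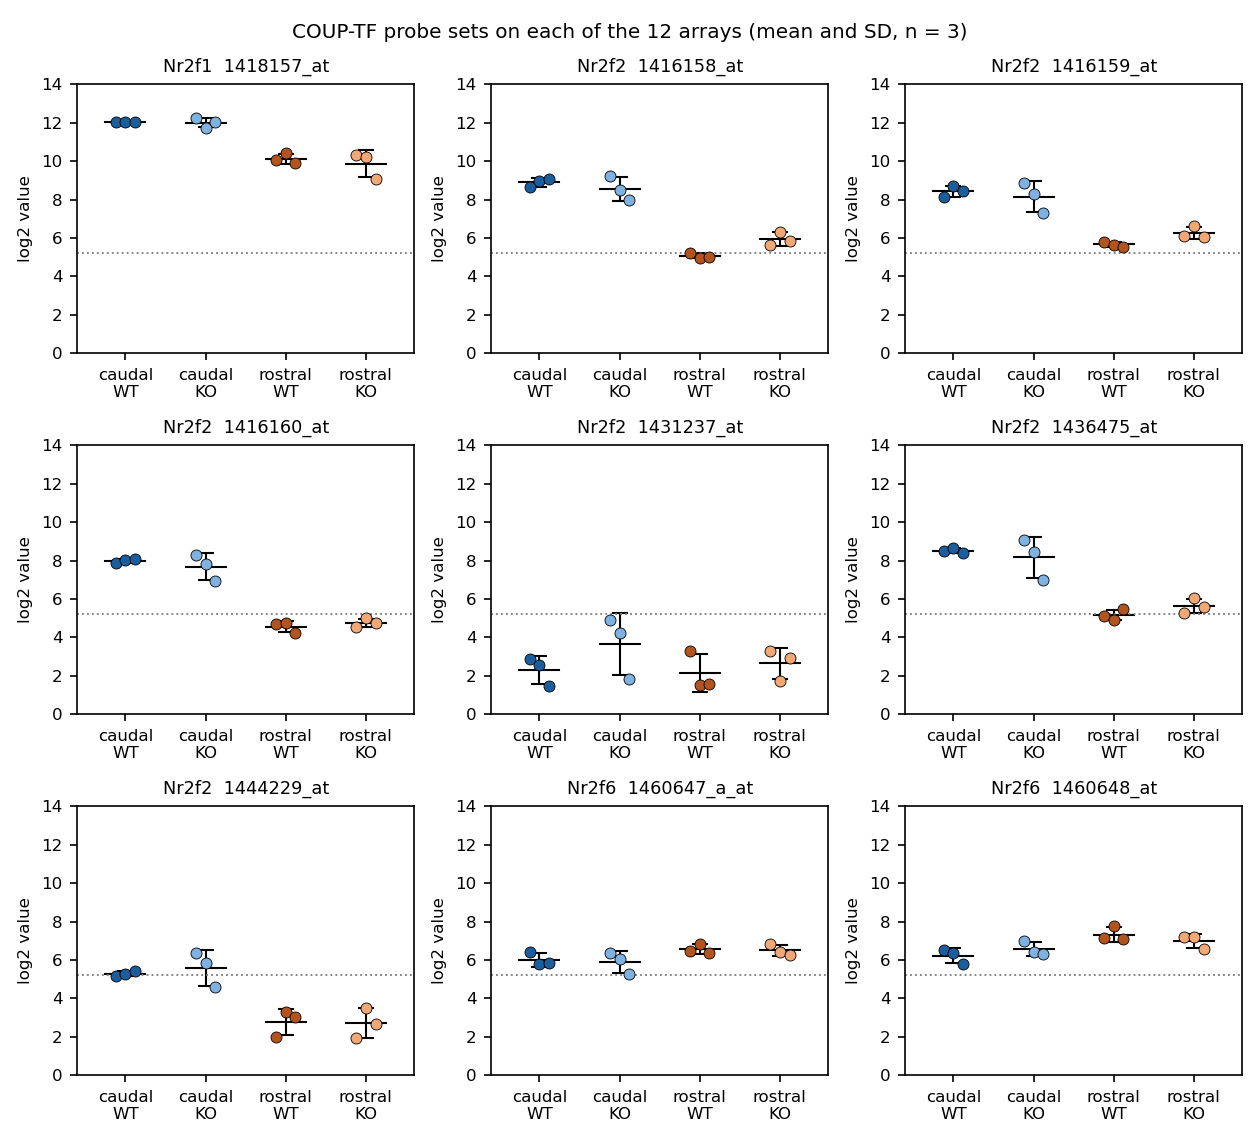
log2 values (y axis) of the 9 COUP-TF probe sets on each of the 12 arrays, by region and genotype (x axis); points are arrays, bars the mean and SD of 3 arrays, and the dotted line the table median of 5.21. Caudal arrays lie above rostral arrays without overlap for Nr2f1 and for 5 of the 6 Nr2f2 probe sets, while 1431237_at stays below the line throughout.

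Nr2f1, the factor that opposes frontal identity, had 1 probe set, 1418157_at. In WT cortex it read 12.07, 12.04 and 12.07 in caudal animals 4, 6 and 14. The rostral WT values were 10.06, 10.41 and 9.90 in animals 10, 12 and 16. Caudal and rostral arrays were clearly apart, and the caudal WT arrays differed among themselves by 0.014 (SD).

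KO cortex showed the same step in Nr2f1. Its caudal values were 12.24, 11.75 and 12.04 in animals 1, 2 and 13. Rostrally it read 10.34, 10.22 and 9.07 in animals 7, 8 and 15. No caudal array overlapped a rostral one, and animal 15 was the lowest of all 12 arrays. That animal also had the highest meningeal and ganglionic eminence marker means, whose part in the low value was not tested.

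The regional difference of Nr2f1 was 1.93 ± 0.26 (SE) on the log2 scale in WT, a 3.82-fold higher caudal level (limma adjusted p = 0.010). In KO it was 2.13 ± 0.26, or 4.38-fold (adjusted p = 0.0057). Without animals 13 and 15 the KO difference was 1.71 ± 0.17 (adjusted p = 0.0049). The KO call was lost with only the groups compared in the fit (limma adjusted p = 0.055). The WT call was lost without rostral WT animal 10 (adjusted p = 0.065) or 16 (0.055), with differences of 1.90 and 1.82.

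Nr2f2 was higher in caudal cortex by 3.82 on the log2 scale in WT and 2.62 in KO on 1416158_at. Its 6 probe sets share targets: 1416158_at, 1416159_at and 1416160_at were designed from the same expressed sequence, so they are not independent. On 1416158_at the caudal WT values were 8.65, 8.99 and 9.05 in animals 4, 6 and 14. Rostral WT values were 5.23, 4.98 and 5.02 in animals 10, 12 and 16, around the median of the table. Among all 24644 tested probe sets this was the caudal excess of rank 2 in WT cortex. The difference was 3.82 ± 0.27, or 14.1-fold (limma adjusted p = 0.00013), and 12.8-fold when values under the table median were raised to it.

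Caudal KO cortex read 9.22, 8.48 and 7.97 on 1416158_at in animals 1, 2 and 13, and rostral KO cortex 5.61, 6.33 and 5.87 in animals 7, 8 and 15. The caudal KO arrays were more widely spread than the caudal WT arrays (SD 0.63 against 0.22), and all of them lay above all rostral arrays. The regional difference in KO was 2.62 ± 0.27, or 6.15-fold (limma adjusted p = 0.0024). Without animals 13 and 15 it was 2.88 ± 0.28 (adjusted p = 0.0049), and the members past the threshold then numbered 5 in WT, 5 in KO and 6 in the average.

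Probe sets 1436475_at and 1416159_at of Nr2f2 showed the caudal excess as well. On 1436475_at the caudal WT values were 8.52, 8.68 and 8.38 and the rostral WT values 5.12, 4.91 and 5.47, a difference of 3.36 ± 0.40. In KO the same probe set read 9.05, 8.46 and 6.98 caudally and 5.29, 6.04 and 5.59 rostrally, a difference of 2.52 ± 0.40. On 1416159_at the differences were 2.77 ± 0.32 in WT and 1.91 ± 0.32 in KO. Adjusted p-values by limma for these probe sets ran from 0.0038 to 0.029.

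Where rostral cortex was too dim to be measured well, only a lower limit is given, with values raised to the table median. The means and p-values beside these limits are of the values as deposited, unless stated otherwise. Probe set 1416160_at stayed at or below 4.98 on all 6 rostral arrays and was at least 6.87-fold higher caudally in WT (7.99 against 4.56, limma adjusted p = 0.00041) and at least 5.51-fold in KO (7.68 against 4.76, 0.0024). The Nr2f2 probe set 1444229_at had caudal means of 5.28 in WT and 5.59 in KO against rostral means of 2.76 and 2.70. This made it at least 1.07-fold and at least 1.50-fold higher, and it did not pass in either genotype (adjusted p = 0.17 and 0.11), except in KO with array weights (3.01, adjusted p = 0.020). In the average over genotypes it passed (2.70 ± 0.47, adjusted p = 0.0099), not with dim values raised (0.34, adjusted p = 0.35). The last probe set, 1431237_at, lay between 1.45 and 4.90 on the 12 arrays, never above the table median, and was not tested.

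In KO cortex 2 of the 4 Nr2f2 calls were lost with single arrays left out, while the differences stayed between 1.54 and 2.34 on 1416159_at and between 2.08 and 3.12 on 1436475_at. The calls of 1416159_at and 1436475_at were lost without KO animal 1, 2, 7, 8 or 15, which left 3 members past the threshold, and that of 1416159_at also without rostral WT animal 10 or 12. Without WT animals 6 and 12 together, 2 members passed in WT, the Nr2f2 probe sets 1416158_at and 1416160_at, and the Nr2f2 differences that no longer passed were 2.63 on 1416159_at and 3.16 on 1436475_at. Averaged over genotypes, all 6 calls were kept whichever array was left out.

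Exact permutation of the region within each genotype gave the smallest p the 400 regroupings allow, 0.005 (two-sided), for Nr2f1 and for the 5 tested Nr2f2 probe sets. Each was 1 test per probe set. For 1416160_at and 1444229_at, tested through their caudal arrays, this p is a description. A lack of overlap in both genotypes fixes this p at 0.005, so the count of such members below is the same observation. The averaged difference was 2.03 ± 0.19 for Nr2f1 and 3.22 ± 0.19 for Nr2f2 1416158_at. Caudal arrays lay above rostral arrays in WT and again in KO for 6 of the 8 tested members, against 1.35% of all tested probe sets. These included the 2 that were tested through their caudal arrays, and without them it was 4 of 6.

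**Figure D2:**
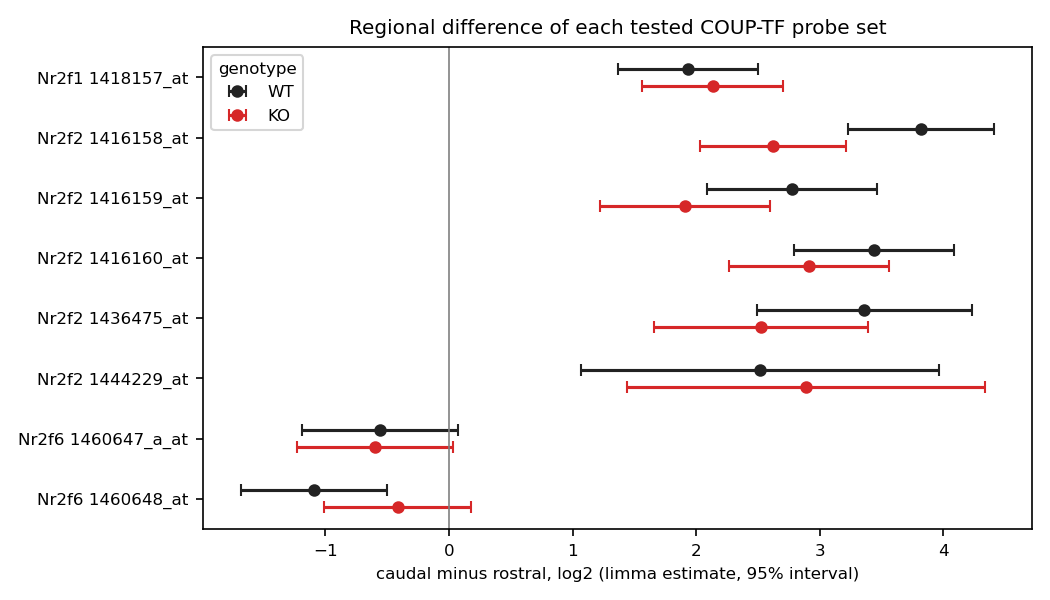
Caudal minus rostral difference on the log2 scale (x axis, limma estimate with 95% interval) in WT (black) and KO (red) for the 8 tested COUP-TF probe sets (y axis). Nr2f1 and Nr2f2 lie to the right of 0 in both genotypes, and the 4 Nr2f6 estimates lie to the left, 3 of them with intervals that include 0. The estimates of 1416160_at and 1444229_at rest on rostral values below the table median.

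Nr2f6, the distant relative, was lower in caudal cortex on both probe sets, by amounts that did not pass. On 1460648_at the WT values were 6.52, 6.37 and 5.80 caudally and 7.13, 7.77 and 7.07 rostrally, without overlap. KO values were 6.99, 6.42 and 6.30 caudally and 7.19, 7.21 and 6.55 rostrally, and these overlapped. Caudal WT arrays lay below rostral WT arrays for 7.08% of all tested probe sets, so the lack of overlap in WT is common.

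The averaged regional difference of Nr2f6 was -0.75 ± 0.19 on 1460648_at (limma adjusted p = 0.069) and -0.58 ± 0.21 on 1460647_a_at (0.21). By exact permutation within genotype the unadjusted two-sided p-values were 0.01 and 0.03. With animals 13 to 16 as an additive block, which removes a shift that these 4 animals share, 1460648_at passed in the average (adjusted p = 0.0066) and in WT (0.017). It also passed in the average without rostral KO animal 15 (-0.86, adjusted p = 0.045), with array weights (-0.78, 0.028) and with 1 probe set per gene (-0.75, 0.039). These are 4 of 23 alternatives in the average, where the limma adjusted p ran up to 0.18, and 1 of 24 in WT. The other probe set, 1460647_a_at, passed under none of 23 alternatives.

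Whether the regional step depends on AP2gamma was asked by the difference of the regional differences, KO minus WT. No member passed in this comparison, and none of the 24644 tested probe sets did by limma (0%), with 666 at an unadjusted p under 0.05. For Nr2f1 the difference was 0.20 ± 0.37, with a 95% interval from -0.61 to 1.01, so changes of the step within that interval could not be told from none.

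For Nr2f2 the estimates were below 0, that is, a smaller step in KO, on 3 probe sets. These were the ones above the table median on at least 1 array of each region. None of the 3 passed. On 1416158_at the value was -1.20 ± 0.39 (95% interval -2.04 to -0.36, limma adjusted p = 1). It was the 1 member of 8 with an unadjusted limma p under 0.05, which 2.7% of all tested probe sets had. Probe sets 1416159_at and 1436475_at gave -0.87 ± 0.45 and -0.84 ± 0.57, with intervals that include 0. The rostral WT means of 1416158_at (5.08) and 1436475_at (5.16) lay below the table median, so their WT steps start from dim values. With such values raised to the median, the steps on 1416158_at were 3.68 in WT and 2.62 in KO. On 1436475_at they were 3.23 and 2.52. For 1416160_at and 1444229_at both rostral groups were below the table median on every array, so the change of the step was not measured. As deposited, their values were -0.52 ± 0.42 and 0.37 ± 0.94. For Nr2f6 the values were 0.68 ± 0.39 on 1460648_at and -0.04 ± 0.41 on 1460647_a_at.

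Both regions entered these Nr2f2 values. In rostral cortex, KO arrays read above WT arrays without overlap on 1416158_at (0.86 ± 0.27, limma adjusted p = 0.74) and on 1416159_at (0.58 ± 0.32, 0.86). That is 2 of 8 tested members, and 5.61% of all tested probe sets showed KO above WT in this way. Some rostral WT arrays of 1416158_at and 1436475_at lay below the table median. With such values raised to it, the rostral KO effect was 0.72 on 1416158_at. On 1436475_at it was 0.48 as deposited and 0.34 raised. In caudal cortex, KO and WT arrays overlapped on all 8 tested members, while KO arrays lay above WT arrays for 3.61% and below them for 3.68% of all tested probe sets. No tested probe set passed in either region by limma (0% in each), with 872 caudal (3.54%) and 1539 rostral ones (6.24%) at an unadjusted p under 0.05. Of the members, 0 caudally and 1 rostrally (1416158_at) were among those.

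Caudal KO animals differed among themselves in Nr2f2. On all 5 tested probe sets animal 1 was the highest and animal 13 the lowest, from 0.64 to 0.89 above and from 0.59 to 1.19 below the group mean. Averaged over the 5 probe sets, animals 1, 2 and 13 read 8.37, 7.77 and 6.74, while WT animals 4, 6 and 14 read 7.67, 7.94 and 7.87. The WT arrays lie inside the range of the KO arrays.

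Markers of tissue that adjoins the caudal cortex also varied over these animals. Some listed genes were dim, with caudal KO means below the table median, and such genes can move a list mean. Among them were Dlx6 (2.16), Gsx2 (3.39), Wnt3a (2.55), Rspo1 (4.22) and Otx2 (0.53). Ganglionic eminence and interneuron markers (8 of 10 tested) averaged 5.94, 6.50 and 7.05 in caudal KO animals 1, 2 and 13, and 5.94 to 6.63 in caudal WT. Cortical hem markers (4 of 7 tested) averaged 6.53, 4.14 and 4.17 in the same KO animals, and 5.59 to 6.84 in caudal WT. Cajal-Retzius markers (7 of 7 tested) averaged 6.80, 6.52 and 6.13 in these KO animals and 6.69 to 6.87 in caudal WT. Choroid plexus markers (3 of 5 tested) averaged 4.14, 3.85 and 2.44 in these KO animals and 2.94 to 7.35 in caudal WT. Thalamus and diencephalon markers (2 of 6 tested) averaged 7.64, 7.73 and 6.15 in these KO animals and 7.19 to 7.82 in caudal WT. In animal 13, where Nr2f2 was lowest, the ganglionic eminence mean was thus the highest of the 6 caudal arrays, and the Cajal-Retzius, choroid plexus and thalamus means were the lowest. The part of these tissues in the Nr2f2 values was not tested. Without animals 13 and 15, a choice made after the values were seen, the difference of the regional differences on 1416158_at was -0.94 ± 0.37 (limma adjusted p = 1), and the KO effect in caudal cortex -0.04.

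**Figure D3:**
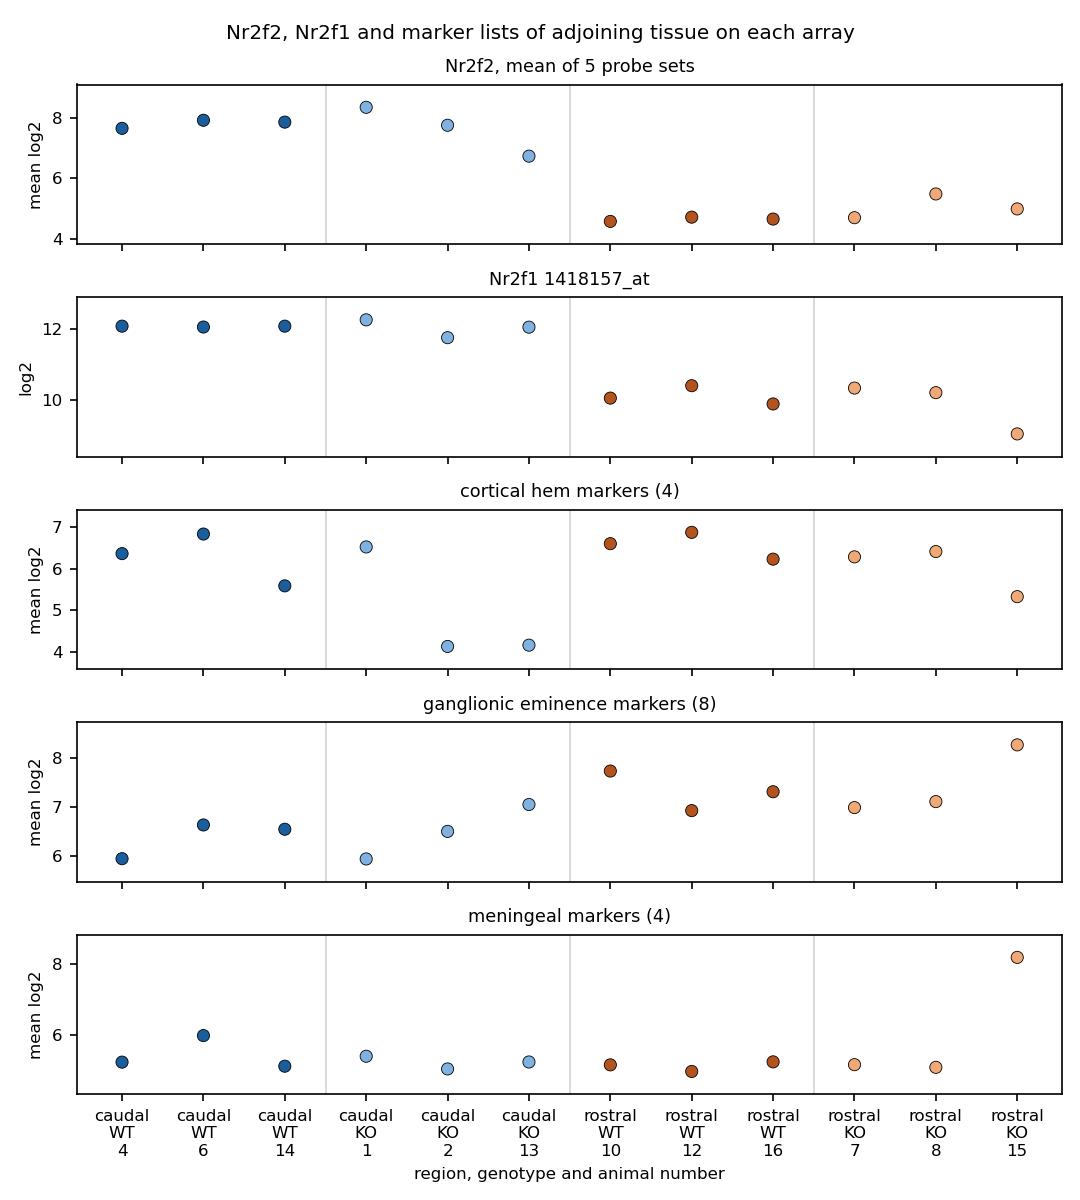
Mean log2 value (y axes, each panel with its own range) on each array (x axis) for the 5 tested Nr2f2 probe sets, Nr2f1, and marker lists of the cortical hem (4 genes), ganglionic eminence (8 genes) and meninges (4 genes). Caudal KO animal 13 has the lowest Nr2f2 of the caudal arrays (6.74), and rostral KO animal 15 has the lowest Nr2f1 (9.07) and the highest meningeal mean (8.18).

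No tested marker gene of other cell types or adjoining tissue passed as higher in caudal cortex averaged over genotypes, where 0.789% of all genes did. Vascular markers (8 of 9 tested), for vessels where Nr2f2 marks veins, had a median caudal minus rostral difference of -0.04 in WT and -0.20 in KO. Ganglionic eminence and interneuron markers had medians of -0.91 and -0.95. In the average over genotypes 2 of the 8 passed as lower caudally, where 2.52% of all genes did. They were Dlx2 (-1.06) and Dlx1 (-1.16), homeobox factors of the ventral forebrain. The interneuron factor gene Lhx6 differed by 0.48 ± 0.13 and did not pass (limma adjusted p = 0.092). Meningeal markers had medians of 0.26 and -0.93. Calb2, a calcium-binding protein gene on the Cajal-Retzius list, was lower caudally (-1.54 ± 0.15, adjusted p = 0.00023). Otx2, a homeobox factor gene on the choroid plexus list, was lower too, with caudal means of 2.78 in WT and 0.53 in KO, below the table median, against rostral means of 7.21 and 6.70 (adjusted p = 0.017). None of the cortical hem markers passed. The part of these tissues in the regional differences of Nr2f1 and Nr2f2 was not tested.

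Among the other genes of cortical patterning, several rostral genes were lower in the caudal cortex, where Nr2f1 and Nr2f2 were higher. Of 14 tested genes on a list of rostral patterning and FGF signalling, 9 passed as lower and 1 as higher in caudal cortex averaged over genotypes, with a median of -0.53. Over all 11784 genes tested, 2.52% passed as lower and 0.789% as higher, with a median of -0.02. The lists were chosen with earlier results of these data known, so these counts are a description. Il17rd, an FGF feedback inhibitor also called Sef, differed by -1.88 ± 0.20 (limma adjusted p = 0.00038). The FGF-responsive factor gene Etv5 (-1.24 ± 0.15), the zinc finger gene Sp8 (-1.84 ± 0.23) and the rostrolateral factor gene Pax6 (-0.42 ± 0.06) were lower too. Fgfr2, a receptor gene, was higher (0.52 ± 0.09).

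The list named for caudal patterning was mixed, with 1 of 17 tested genes higher and 2 lower in the same average. Of all genes, 0.789% passed as higher and 2.52% as lower. Fgfr3, an FGF receptor gene known for a caudal gradient, was higher by 1.74 ± 0.18 (limma adjusted p = 0.00032). The ephrin ligand gene Efna5 (-1.51 ± 0.22) and the doublesex-related factor gene Dmrta1 (-1.16 ± 0.18) were lower. Of 23 tested area and layer genes, 1 passed as higher, the protocadherin gene Pcdh19 (0.71), and 3 as lower, against the same shares of all genes. Those were the axon guidance receptor gene Robo1 (-0.90), the deep layer factor gene Tbr1 (-0.63) and the migration gene Rnd2 (-0.40).

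Few genes of nuclear receptors and their cofactors passed between regions, and the median averaged difference was -0.06 on both lists. Of 20 tested genes for other nuclear receptors, which included the retinoid X receptors, 1 passed as higher caudally (5%) and 1 as lower (5%), against 0.789% and 2.52% of all genes. The immediate early receptor gene Nr4a2 was higher (0.80 ± 0.18, limma adjusted p = 0.041), and the clock receptor gene Nr1d2 was lower (-0.33 ± 0.07, 0.035). Of 22 tested cofactor genes none passed as higher and 2 as lower (9.09%), the corepressor genes Rcor2 (-0.70 ± 0.10) and Nrip1 (-0.76 ± 0.16). Some of the lists share genes, such as Rorb and Tbr1.

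The genes most like each member were sought among 11783 others, by Pearson correlation of log2 values over the 12 arrays. The arrays fall into caudal and rostral sets, and the step between these sets enters every r. For Nr2f1 the 5 most alike were Slf1 (r = 0.976), Fgfr3 (0.974), the long noncoding RNA A830082K12Rik (0.959), Flrt3 (0.958) and Timp2 (0.955). Within the 6 caudal arrays their r ran from -0.16 to 0.71, and within the 6 rostral arrays from 0.86 to 0.95. Rostral KO animal 15 was the lowest of the 12 arrays for Nr2f1 (9.07), Slf1 (8.46), Fgfr3 (7.70) and A830082K12Rik (5.59). The part of this 1 array in the rostral r was not tested.

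For Nr2f2 (1416159_at) the most alike were the long noncoding RNA Gm38604 (r = 0.969), Sv2b (0.947), Pde2a (0.947), Rbm20 (0.945) and Fam172a (0.936). Within the caudal arrays their r ran from 0.77 to 0.92, and within the rostral arrays from 0.14 (Pde2a) to 0.83. For Nr2f6 (1460648_at) they were the receptor gene Nr2e1 (0.945), a progenitor factor also called Tlx, then Cyba (0.936), Cln6 (0.925), Raver1 (0.923) and Nradd (0.920).

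Of these alike genes, 4 are neighbours of Nr2f1 in the RefSeq gene order (GRCm38.p6). Slf1, Fam172a, Gm38604 and A830082K12Rik all lie among the 5 nearest array genes on either side of it. Gm38604 and A830082K12Rik are the nearest array gene on each side, and genes without a probe set were not counted. The neighbours were examined after these values were seen, so the pattern is a description. Of 10 neighbours 9 were tested, and these 4 passed as higher in caudal cortex averaged over genotypes, where 0.789% of all genes did.

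Gm38604 had caudal WT values of 6.82, 7.23 and 6.89 against rostral WT values of 3.23, 3.67 and 3.18. Caudal KO arrays read 7.48, 7.13 and 6.77, and rostral KO arrays 3.90, 4.20 and 3.50. The rostral arrays all lay below the table median, and with dim values raised to it the caudal level was at least 3.58-fold higher. That lower limit was not tested. As deposited, the means were 7.05 and 3.61, a difference of 3.44 ± 0.21 (limma adjusted p = 9.3e-06). A830082K12Rik differed by 1.38 ± 0.18, Slf1, a DNA repair factor gene, by 1.11 ± 0.11, and Fam172a by 0.45 ± 0.08 (limma adjusted p = 0.0024, 0.00023 and 0.012).

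The neighbours in between did not pass. They were 2210408I21Rik (0.44 ± 0.41) and Pou5f2 (-0.17 ± 0.58), and on the far side Arrdc3 (0.17 ± 0.07), Adgrv1 (0.46 ± 0.13) and Lysmd3 (-0.07 ± 0.10). Around Nr2f2 only 2 of 10 neighbours were tested, Arrdc4 (-0.01) and Rgma (-0.30), and neither passed. Around Nr2f6, 1 of 9 tested neighbours passed as lower caudally, Abhd8 (-0.41 ± 0.08, limma adjusted p = 0.013), where 2.52% of all genes did.

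**Figure D4:**
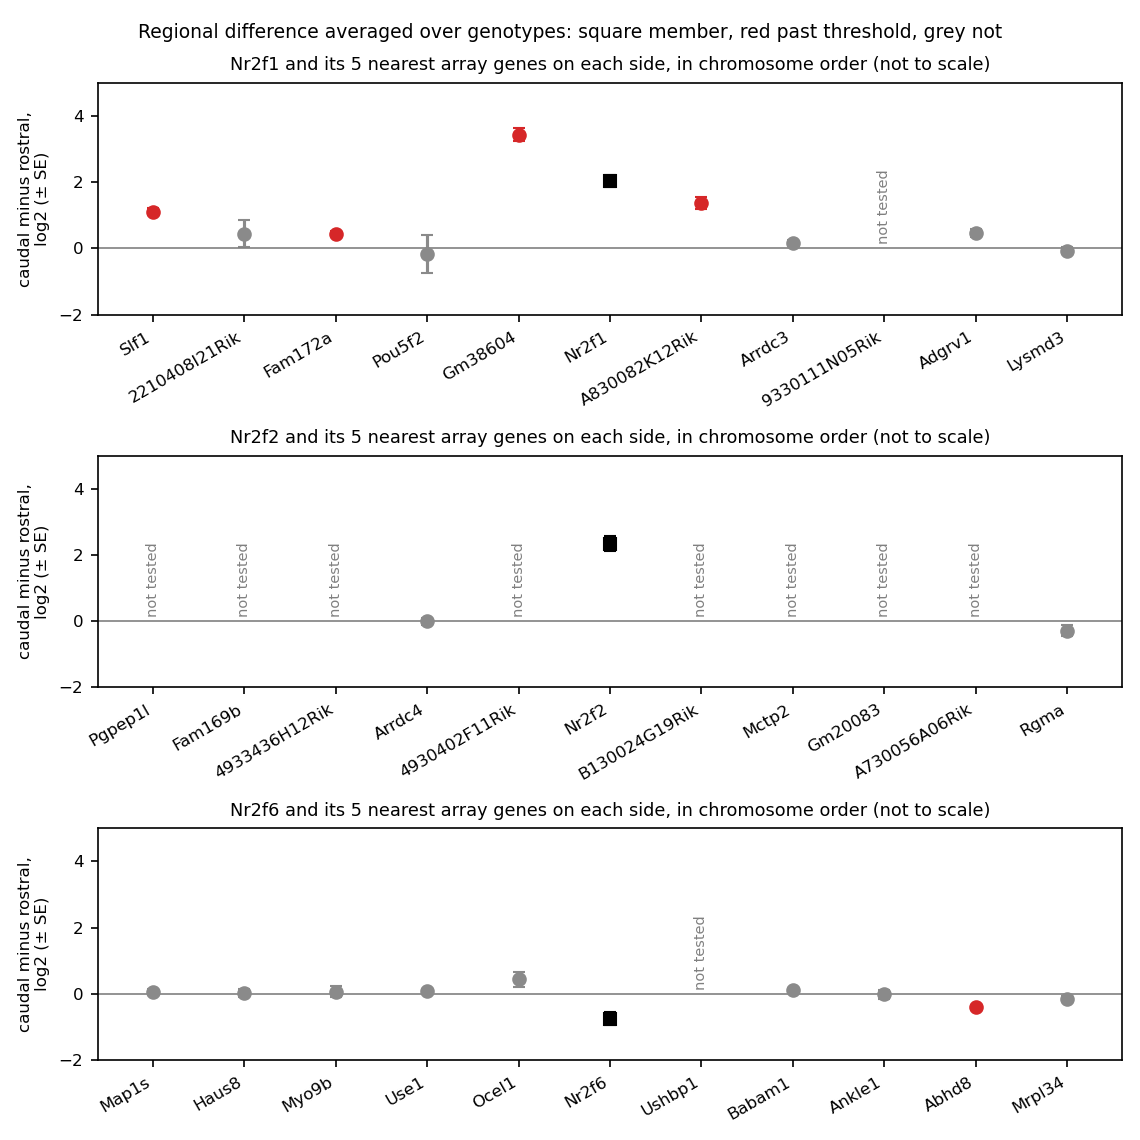
Caudal minus rostral difference averaged over genotypes (y axis, log2, ± SE) for Nr2f1, Nr2f2 and Nr2f6 (black squares, 1418157_at, 1416159_at and 1460648_at) and their 5 nearest array genes on each side in chromosome order (x axis, not to scale); red circles passed the threshold and grey ones did not. Around Nr2f1, Slf1, Fam172a, Gm38604 and A830082K12Rik are higher caudally, and the point of Gm38604 rests on rostral values below the table median.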

How the data were processed

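The authors deposited 1 table of log2 values for 45101 probe sets on 12 arrays. Per the labels, RNA was amplified in a single round and biotin-labelled. The methods for background correction, normalisation and probe set summary are not given in the sources used here. The unit was read from the values (-3.81 to 14.02). Probe sets were named by the platform annotation, updated through RefSeq gene identifiers (34754 of 34958 with 1 gene matched). Control probe sets (64) were left out.

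All 12 arrays entered 1 limma 3.58.1 fit (R 4.3.3) with 1 mean per group and an intensity trend (8 residual degrees of freedom). Benjamini-Hochberg adjustment ran over 24644 probe sets above the table median on at least 3 arrays, at a threshold of 0.05. In lists, a gene is represented by its tested probe set of highest mean. Members and lists were chosen with earlier results of these data known. From each list, up to 5 genes past the threshold of smallest p could be named, and the 5 most alike genes per member. The fit was tested on simulated data. The number of arrays limits the precision. Left out as members were probe sets naming several genes.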

Additional observations from a re-analysis of the deposited data

How the results depend on the processing

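Averaged over genotypes, 6 member probe sets passed as reported. The alternatives gave 6 or 7, except 5 with dim values raised to the table median and 5 with the filter at the 75th percentile of the table, the missing one being Nr2f2 1444229_at. Without WT animals 6 and 12, 2 members passed in WT and 3 in KO. In KO 3 passed with no intensity trend and 2 with only the groups compared. Leaving out 1 array gave 4 to 5 members in WT, 3 to 5 in KO, 6 to 7 in the average and 7 to 8 of 8 by exact permutation. Over all probe sets the WT count of 83 ran from 5 (without animals 6 and 12) to 265 (animals 13 to 16 as a block), the KO count of 91 from 16 (without animals 13 and 15, chosen after seeing the data) to 565 (array weights), and the averaged count of 579 from 322 to 1208.

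Small KO effects changed sign. With 1 array left out, Nr2f1 ran from -0.20 to 0.43 for the difference of regional differences, from -0.17 to 0.082 for the caudal and from -0.48 to 0.15 for the rostral KO effect. The caudal KO effect of Nr2f2 ran from -0.65 to 0.15 on 1416159_at, from -0.64 to 0.063 on 1416160_at and from -0.81 to 0.23 on 1436475_at. Nr2f2 1444229_at ran from -0.016 to 0.88 (difference), from -0.083 to 0.81 (caudal) and from -0.46 to 0.32 (rostral). Nr2f6 1460647_a_at ran from -0.28 to 0.28 (difference), from -0.35 to 0.21 (caudal) and from -0.22 to 0.079 (rostral). Array weights gave -0.08 for Nr2f1 and 0.032 for Nr2f6 1460647_a_at (difference) and 0.12 for Nr2f2 1444229_at (rostral). Without animals 6 and 12 the rostral effects were 0.18 for Nr2f2 1444229_at and 0.079 for Nr2f6 1460647_a_at. Without animals 13 and 15, Nr2f1 gave -0.22 (difference) and 0.15 (rostral), Nr2f2 gave 0.15, 0.063 and 0.23 in caudal cortex on 1416159_at, 1416160_at and 1436475_at, and Nr2f6 1460647_a_at gave 0.16 (difference), 0.21 (caudal) and 0.056 (rostral). The cause of these changes was not tested, and none of these values passed.

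No paired analysis was possible because every array carries a different animal number, and whether pieces of 1 embryo or litter lie on several arrays is not known.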

Other observations

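Both long noncoding RNAs near Nr2f1 were measured by more than 1 probe set, examined after the values were seen. The further Gm38604 probe set, 1419888_at, read 5.03 to 6.19 on the 6 caudal arrays and 0.44 to 3.78 on the 6 rostral arrays, without overlap. Of 4 A830082K12Rik probe sets, 1444007_at read 7.16 to 8.09 caudally and 4.30 to 6.57 rostrally, and 1419990_at read 6.33 to 6.96 and 4.04 to 5.63. The dim probe set 1442600_at read 5.04 to 5.80 caudally and 4.07 to 5.27 rostrally, with overlap. On 1444007_at, 1419990_at and 1458470_at the lowest of the 12 arrays was rostral KO animal 15, which was also the lowest for Nr2f1. Whether any of these probe sets overlap Nr2f1 transcripts was not examined.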
